A study of Mus musculus with 16 samples.

Results

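The comparison described here asks whether the deacetylase inhibitor FK228 changes the same transcripts, by the same amount, in organ of Corti cultures of 2 genotypes. It uses all 16 libraries of the series, 4 in each of 4 groups. Organs of Corti came from C57BL/6 mice on postnatal day 0 that were wild type (WT) or Rest(+/deltaExon4), heterozygous (Het) for a Rest allele without exon 4. All were kept in culture for 3.5 days. They received 2 nM FK228, or 0.1% DMSO as solvent, in 2 exposures that spanned days 1 to 1.5 and days 3 to 3.5 in vitro. Each library was made from RNA pooled over 6 to 8 cultures, and the labels do not say whether pools came from separate litters, so the p-values measure the spread between pools. The measure throughout is the interaction, the log2 fold change of FK228 over solvent in Het minus the same in WT. A positive interaction means a larger rise or a smaller fall in Het.

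REST is a zinc finger repressor that sits on a DNA element (RE1) near many neuronal genes and recruits class I histone deacetylases through the corepressors RCOR1 and SIN3A. FK228 (romidepsin) inhibits class I deacetylases. In hair cells of the cochlea the primary Rest transcript is spliced to include exon 4, which inactivates the repressor, and a Rest allele without this exon keeps REST active there. The organ of Corti also holds supporting cells, and cultures carry neurites, glia, mesenchyme and other neighbours, so every value is an average over cell types.

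The libraries held 12361027 to 23611571 gene counts and detected 21653 to 22904 genes. Reads outside annotated genes (the no-gene share) made up 11.2% to 22.2% of uniquely mapped reads, with the lowest shares in Het solvent library 4 (11.2%) and WT solvent library 1 (11.6%). ERCC spike-in RNA averaged 0.178% in WT solvent, 0.205% in WT with FK228, 0.200% in Het solvent and 0.350% in Het with FK228. Levels are counts scaled to the library total (CPM) with TMM factors, and an alternative scaling on ERCC counts lowered the median interaction of all genes from 0.00 to -0.56. All changes are therefore relative to the bulk of transcripts. Rest had an interaction of 0.02 ± 0.11 (SE, adjusted p = 0.996; -0.54 with spike-in scaling). Its level was 75.2 to 86.4 CPM in WT solvent, 69.9 to 79.9 in WT with FK228, 78.1 to 94.8 in Het solvent and 75.8 to 87.3 in Het with FK228. These counts cover the whole gene and do not test for the missing exon.

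FK228 changed largely the same genes in both genotypes. Of 17125 genes tested, FK228 raised 4061 (23.7%) and lowered 4333 (25.3%) in WT, and raised 4068 (23.8%) and lowered 4227 (24.7%) in Het, by edgeR's quasi-likelihood test at an adjusted p under 0.05. These 2 comparisons share no library. The 6743 genes called in the same direction in both were 80.3% of the WT calls and 81.3% of the Het calls. Across the 3274 genes raised in both, the median log2 effect was 0.71 in WT and 0.73 in Het, and across the 3469 lowered in both it was -0.77 in each. Across genes, which are not independent replicates, the 2 effects had a Pearson correlation of 0.876 over all genes and 0.945 over the 9700 genes with a mean of at least 10 CPM.

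The interaction itself passed the test in 4 genes (0.0234% of those tested). Atp2a3, Sncb and Snap25 rose by a larger factor in Het, and Cplx2 fell by a larger factor in Het. Spike-in scaling called the same 4 genes with the same signs, but among 9 positive and 4060 negative calls. RLE factors gave 3 positive and 2 negative calls, the fifth being Arhgap44. Atp2a3 and Cplx2 alone were called by limma voom (adjusted p = 0.199 for Snap25 and 0.194 for Sncb) and with the sex mix of the pools as a covariate (adjusted p = 0.0568 for both). An unadjusted p under 0.05 was reached by 995 genes (5.81%), 536 with a positive interaction (3.13%) and 459 with a negative one (2.68%). The 95% interval of the interaction lay within 1 log2 unit of 0 for 11472 genes (67.0%), and for 9248 (95.3%) of the genes with at least 10 CPM. With TMM scaling, a difference as large as 2-fold between the genotypes' responses was therefore outside the interval for those genes. This count was not made with spike-in scaling, where the median interaction of all genes was -0.56.

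**Figure D1:**
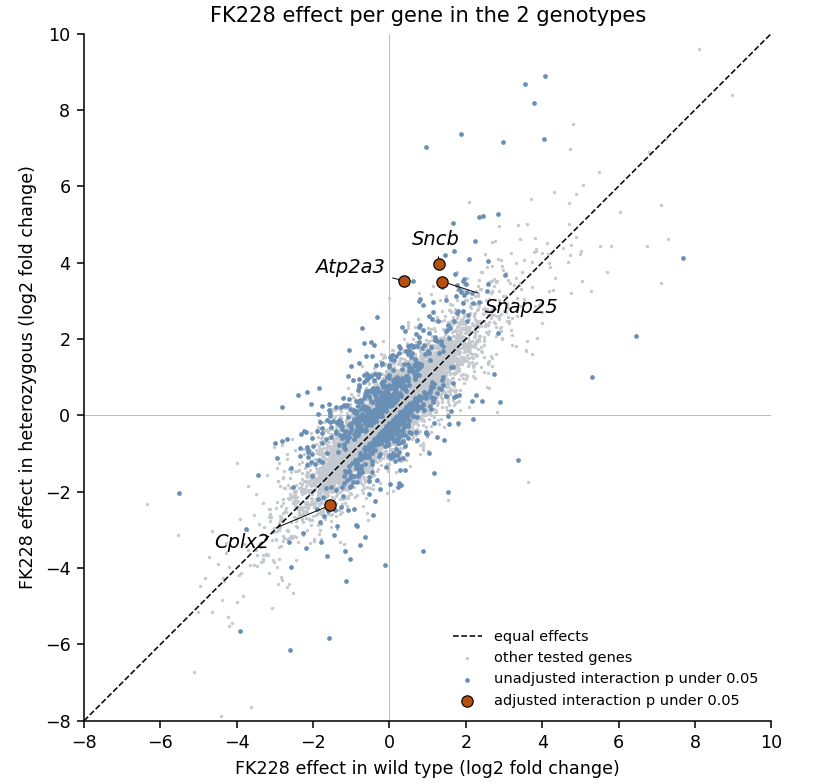
FK228 effect per gene in WT (horizontal, log2 fold change) against Het (vertical, log2 fold change), with 1 point per tested gene, 4 libraries per group and a dashed line of equal effects. Most points follow the line, and the 4 genes with an adjusted interaction p under 0.05 are named: Atp2a3, Sncb and Snap25 lie above it and Cplx2 below it.

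Of the 3191 genes called in only 1 genotype, 1 was called for the interaction, against 0.0234% of all genes. FK228 passed the test in WT alone for 1645 genes, and 92.3% of them had the same sign in Het. None of these was called for the interaction, and 250 had an unadjusted interaction p under 0.05, against 5.81% of all genes. FK228 passed in Het alone for 1546 genes, and 91.5% of them had the same sign in WT. Of these, 1, Atp2a3, was called for the interaction, and 265 had an unadjusted interaction p under 0.05, against the same 5.81%. There were 6 genes called in opposite directions. Of these Skp1a, a subunit of SCF ubiquitin ligases, had a mean of 2130 CPM in WT solvent and 2440 with FK228, against 2443 and 2182 in Het, effects of 0.20 ± 0.06 and -0.16 ± 0.06. Ikbip had effects of 0.16 ± 0.06 in WT and -0.18 ± 0.06 in Het. All 6, which also include Gm15834, Gm14167, 2610507I01Rik and Gm10076, had an unadjusted interaction p under 0.05. The choice all but fixed this, because the interaction is the difference of the same effects by which they were chosen. It is therefore no separate evidence of a difference. None of the 6 passed after adjustment (adjusted p = 0.383 for Ikbip and Skp1a). The 6 genes were singled out after their values were seen. Genes called in only 1 genotype were also chosen by effects that enter the interaction, which limits the counts of 250 and 265 too.

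Atp2a3 (ENSMUSG00000020788) encodes SERCA3, a pump that moves calcium into the endoplasmic reticulum, and lies on chromosome 11 at 72961169 to 72993044 (GRCm38, GENCODE M21). Its level in WT solvent was 12.7, 8.14, 7.85 and 10.3 CPM, and in WT with FK228 10.96, 14.1, 13.8 and 12.5 CPM. In Het solvent it was 0.63, 0.92, 0.67 and 0.14 CPM (2 to 14 counts per library), and in Het with FK228 6.35, 7.38, 6.01 and 7.79 CPM. The Het groups did not overlap, the WT groups did, and Het with FK228 stayed below every WT library. FK228 thus gave 0.39 ± 0.21 (SE, adjusted p = 0.132) in WT and 3.52 ± 0.29 (adjusted p = 2.4e-08), an 11.5-fold rise, in Het. The interaction was 3.13 ± 0.37 (95% interval 2.36 to 3.90, adjusted p = 0.0014), the lowest adjusted p of all genes. The rise in CPM was also larger in Het, 6.29 against 3.07. The call held in all 16 fits that left out 1 library (highest adjusted p = 0.00638).

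Sncb (ENSMUSG00000034891) encodes beta-synuclein, a presynaptic protein of neurons, on chromosome 13 at 54758860 to 54766595. It was at 2.17, 1.82, 1.46 and 1.72 CPM in WT solvent and 4.71, 3.63, 4.17 and 5.32 CPM in WT with FK228. It was at 0.14, 0.39, 0.27 and 0.27 CPM in Het solvent, from 2 to 6 counts per library, and at 4.23, 3.38, 3.51 and 6.14 CPM in Het with FK228. Both genotypes reached overlapping levels with the drug, from starting levels that did not overlap. The FK228 effect was 1.31 ± 0.24 (SE, 2.47-fold) in WT and 3.95 ± 0.32 (15.5-fold) in Het, an interaction of 2.65 ± 0.41 (95% interval 1.78 to 3.51, adjusted p = 0.0244). The call was lost (adjusted p of 0.0584 to 0.0786) without Het solvent library 1, 4 or 5, Het FK228 library 2, WT solvent library 1 or WT FK228 library 1, 2 or 4, and it was lost without both libraries of lowest no-gene share (adjusted p = 0.18).

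Snap25 (ENSMUSG00000027273), a SNARE protein of synaptic vesicle fusion on chromosome 2 at 136713453 to 136782428, showed the same order of groups at a higher level. WT solvent libraries held 27.9, 19.3, 13.7 and 12.99 CPM, and WT libraries with FK228 held 49.5, 40.9, 42.3 and 61.4 CPM. Het solvent libraries held 0.91, 2.75, 2.02 and 2.05 CPM, and Het libraries with FK228 held 21.8, 19.9, 22.9 and 23.8 CPM. With the drug, Het cultures overlapped the WT solvent range but stayed below WT with FK228. The FK228 effect was 1.39 ± 0.22 (2.62-fold) in WT and 3.50 ± 0.28 (11.3-fold) in Het, an interaction of 2.12 ± 0.35 (95% interval 1.38 to 2.85, adjusted p = 0.0429). In CPM the order was the opposite, a rise of 30.03 in WT and of 20.2 in Het, a difference of -9.87 ± 5.90 (SE from the group SDs). The call was kept in 4 of 16 fits with 1 library left out, those without Het solvent library 2, WT solvent library 3 or 4 or WT FK228 library 7, with adjusted p of 0.0557 to 0.124 in the other 12, and was lost without both libraries of lowest no-gene share (adjusted p = 0.163).

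Cplx2 (ENSMUSG00000025867), on chromosome 13 at 54371349 to 54383917, encodes complexin 2, which binds assembled SNARE complexes. It was the one gene with a called negative interaction, and the most abundant of the 4. Its level fell from 282, 288, 298 and 239.9 CPM to 95.2, 95, 86.3 and 102 CPM in WT, and from 239, 240.3, 228 and 246 CPM to 45.2, 50.2, 45.6 and 45.6 CPM in Het. The solvent groups overlapped and the FK228 groups did not, with every Het library below every WT one. FK228 gave -1.55 ± 0.07 in WT and -2.35 ± 0.08 in Het, which is 2.93-fold and 5.11-fold lower, with an interaction of -0.80 ± 0.10 (95% interval -1.02 to -0.58, adjusted p = 0.00328). In CPM the fall was 182 in WT and 192 in Het, a difference of -9.42 ± 13.8. The call held in all 16 fits that left out 1 library (highest adjusted p = 0.0154).

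**Figure D2:**
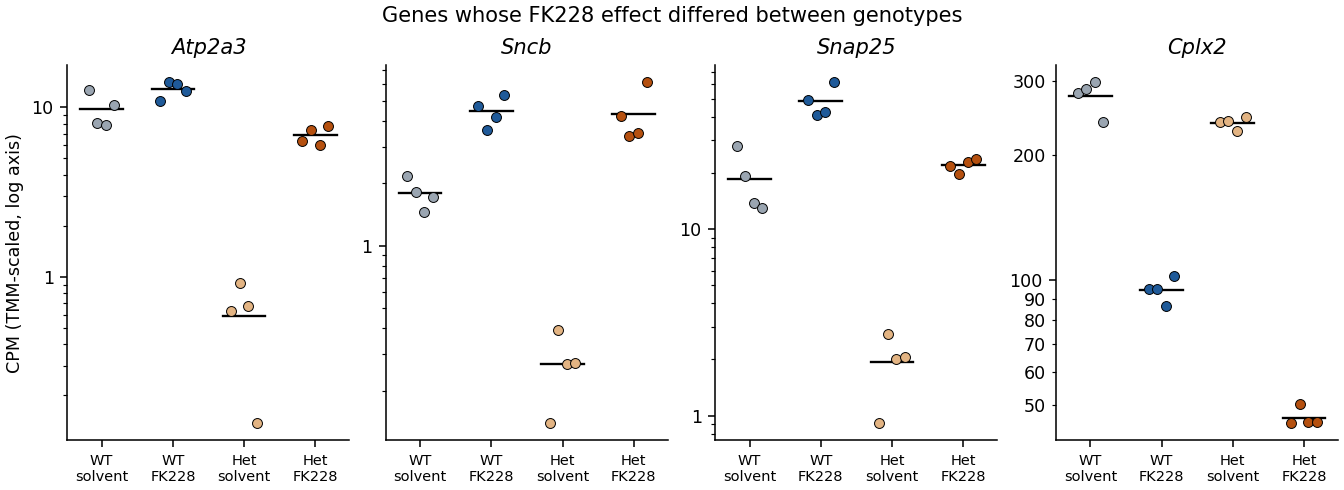
Level of the 4 genes called for the interaction in each library (CPM after TMM scaling, log axis, a panel and axis per gene), with 4 libraries per group as points and the group mean as a bar. Atp2a3, Sncb and Snap25 are lowest in Het solvent and rise there by the largest factor, and Cplx2 is lowest in Het with FK228.

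Cplx2 and Sncb lie on the same chromosome, 375 kb apart, with interactions of opposite sign. The 11 tested genes between them had interactions of -0.15 to 1.10, and none was called. Within 250 kb of each of the 4 genes, no other tested gene reached an unadjusted interaction p under 0.05, against 5.81% of all genes. With 3 to 12 neighbours per called gene, this absence says little at such a share. The neighbours' interactions were -0.21 to 0.30 near Atp2a3, -0.15 to 0.08 near Cplx2, 0.03 to 1.63 near Snap25 and -0.15 to 1.24 near Sncb. The largest, Ankef1 near Snap25 (1.63 ± 0.79, SE) and Unc5a near Sncb (1.24 ± 0.84), had wide errors. A difference there was not excluded. The 250 bases before the annotated starts of Atp2a3 (chr11:72960919-72961168, plus strand) and Sncb (chr13:54766596-54766845, minus strand) are shown because these are the called genes with a larger rise in Het for which a RefSeq promoter (GRCm38.p6) was at hand at the GENCODE start. GC boxes (GGGCGG on either strand), the usual binding letters of SP1, are in capitals.

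Atp2a3: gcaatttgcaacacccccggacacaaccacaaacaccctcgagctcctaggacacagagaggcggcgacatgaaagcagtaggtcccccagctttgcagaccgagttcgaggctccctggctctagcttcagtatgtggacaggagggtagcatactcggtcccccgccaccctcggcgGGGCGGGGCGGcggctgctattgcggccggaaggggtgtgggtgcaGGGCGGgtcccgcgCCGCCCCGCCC
Sncb: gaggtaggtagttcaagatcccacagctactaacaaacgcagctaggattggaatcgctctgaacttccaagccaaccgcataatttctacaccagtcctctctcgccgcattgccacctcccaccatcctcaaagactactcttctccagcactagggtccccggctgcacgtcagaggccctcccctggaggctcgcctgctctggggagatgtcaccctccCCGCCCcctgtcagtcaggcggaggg

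Atp2a3 held 5 GC boxes, some of them overlapping, and Sncb held 1, while 55.2% of the windows of tested genes held at least 1. The core of the RE1 element was searched as TCAGCAC and GGACAG with 3 bases between, on both strands, with at most 2 mismatches in its 13 fixed positions. Neither window held it, and 1.02% of the windows of tested genes did. A match is a description of letters only, and a REST site can lie outside such a window.

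Of the 46 REST targets tested, 23 rose with FK228 in both genotypes (19.1% of all genes did), and most had a larger log2 effect in Het. The list holds 50 genes, mostly neuronal, that are known targets of REST from the literature, and the counts that follow are for the 46 that passed the filter on low counts. Like the other lists, it was chosen with earlier results of these data known. Its comparison with all genes is therefore not independent of these data. FK228 raised 24 and lowered 4 of them in WT (23.7% and 25.3% of all genes), with a median log2 effect of 0.78. It raised 32 and lowered 3 in Het (23.8% and 24.7% of all genes), with a median of 1.18. The interaction was positive for 37 of 46 (80.4%, against 50.6% of all genes), with a median of 0.58 against 0.00 over all genes (0.00 against -0.56 with spike-in scaling), and 1 positive (Snap25) and 1 negative (Cplx2) call. Unadjusted p under 0.05 was reached by 16 members in the positive and 1 in the negative direction, against 3.13% and 2.68% of all genes. The median was 0.42 to 0.68 when 1 library was left out and 0.43 without both libraries of lowest no-gene share.

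After Snap25, the members with the smallest p were Ina and Mapk8ip2. Ina, the neuronal intermediate filament alpha-internexin, was at 3.36 ± 0.51 CPM (SD, n = 4) in WT solvent and 8.59 ± 2.19 CPM in WT with FK228, against 0.49 ± 0.33 and 5.41 ± 0.50 CPM in Het. Its interaction was 2.09 ± 0.40 (adjusted p = 0.144), while the rise in CPM was 5.23 in WT and 4.92 in Het. Mapk8ip2, a JNK scaffold protein of neurons, was at 5.52 ± 0.60 and 18.4 ± 2.43 CPM in WT and 1.98 ± 0.90 and 17.4 ± 2.27 CPM in Het, an interaction of 1.40 ± 0.30 (adjusted p = 0.190). Cplx1, a complexin like Cplx2, was at 12.5 ± 4.44 CPM in WT solvent and 9.54 ± 2.54 CPM with FK228, but at 0.57 ± 0.27 and 1.21 ± 0.64 CPM in Het, an interaction of 1.47 ± 0.52 (adjusted p = 0.694).

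Among secretory granule proteins, Chga had a mean of 12.4 CPM in WT solvent and 48.3 CPM in WT with FK228, and 2.92 and 26.1 CPM in Het, an interaction of 1.2 ± 0.39 (adjusted p = 0.635). Scg3 had effects of 0.12 in WT and 1.44 in Het, with an interaction of 1.32 ± 0.39 (adjusted p = 0.516), and Chgb had 0.47 and 1.34. In CPM, Chga and Chgb gained less in Het than in WT (differences of -12.8 and -2.15), and Scg3 gained more (1.78). Scg2, at 251 to 324 CPM in the group means, had effects of -0.15 and -0.02, an interaction of 0.12 ± 0.51. Vgf, at 0.23 to 0.78 CPM, had an interaction of 0.96 ± 0.89. Pcsk2 fell in both, by -0.85 in WT and -0.96 in Het, an interaction of -0.12 ± 0.22. Other members had close estimates in WT and Het, such as Unc13a, which primes vesicles (1.56 and 1.63, 95% interval of the interaction -0.67 to 0.80), and Mapk8ip1 (0.77 and 0.85, interval -0.24 to 0.40). Stx1a, a SNARE partner of Snap25, rose in both, by 1.34 in WT and 1.04 in Het, with an interaction of -0.31 ± 0.17 (adjusted p = 0.891).

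A larger factor in Het did not always mean a larger rise in transcripts. Of the 30 REST targets whose log2 effect was above 0 in both genotypes and larger in Het, 11 (36.7%), Snap25 and Ina among them, gained fewer CPM in Het than in WT. Over all genes of this pattern the share was 394 of 3841 (10.3%). The groups' solvent levels differed in these genes: 17 of 46 REST targets were lower in Het solvent than in WT solvent, against 0.823% of all genes (1.2% higher, 0 members), with a median log2 difference of -0.74. With FK228, 7 were lower in Het (0.928% of all genes lower, 1.21% higher with 0 members), with a median of -0.22. The 6 members lower in both treatments were Chgb, Cplx1, Nefm, Rab3c, Scg3 and Snap25, and Cplx2 was lower with FK228 alone. The interaction uses the same libraries as these genotype comparisons, so the 2 are not independent.

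**Figure D3:**
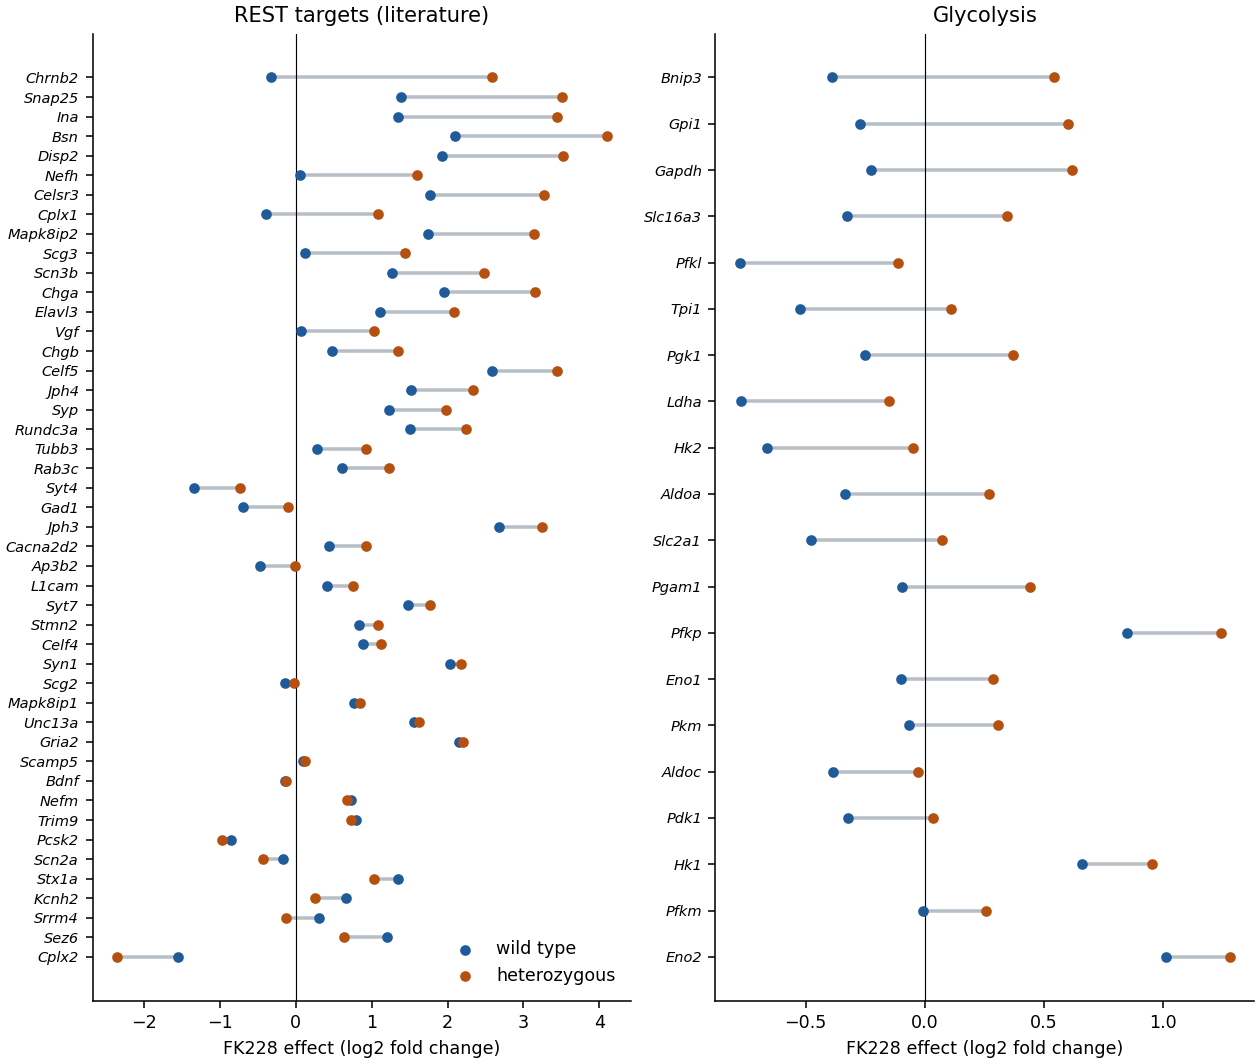
FK228 effect (log2 fold change) in WT and Het for each tested member of the REST target list (46 genes) and the glycolysis list (20 genes), joined by a line and ordered by the interaction. The Het point lies to the right of the WT point for 37 REST targets and all 20 glycolysis genes, and the line for Cplx2 runs the other way.

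Of the promoter windows found for 33 REST targets, 4 of 45 (8.89%) held the RE1 core within 2 mismatches, against 1.02% of the windows of tested genes. Their sites are printed with 10 flanking bases and the 16-base core in capitals. They show the element in members that were not called for the interaction (0.0234% of all genes were). The windows are chr3:80802836-80803085 (Gria2), chr9:57468061-57468310 (Scamp5), chr9:108825795-108826044 (Celsr3) and chrX:20920919-20921168 (Syn1), read along each gene. The Gria2 core matches on the opposite strand.

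Gria2: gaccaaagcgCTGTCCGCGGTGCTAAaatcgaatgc
Scamp5: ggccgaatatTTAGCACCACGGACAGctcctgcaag
Celsr3: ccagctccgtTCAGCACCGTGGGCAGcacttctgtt
Syn1: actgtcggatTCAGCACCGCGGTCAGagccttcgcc

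They begin 170, 153, 126 and 231 bases before the annotated starts, each with 1 mismatch. The FK228 effect of Gria2, an AMPA receptor subunit, was 2.15 in WT and 2.20 in Het (interval of the interaction -1.21 to 1.30), that of Syn1, a synaptic vesicle phosphoprotein, 2.03 and 2.18, and Scamp5, a secretory carrier membrane protein, 0.09 and 0.12. Celsr3, a cadherin of axon guidance at 0.24 to 2.47 CPM in the group means, had 1.77 and 3.27, with an interaction of 1.50 ± 0.75 (adjusted p = 0.880).

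The lists of vesicle release and calcium handling hold the 3 called genes Snap25, Cplx2 and Atp2a3. In the synapse and exocytosis list FK228 raised 18 and lowered 1 of 35 tested members in WT (23.7% and 25.3% of all genes), raised 20 and lowered 2 in Het (23.8% and 24.7% of all genes), and the interaction had a median of 0.14 (-0.43 with spike-in scaling), with 2 calls, against 0.0234% of all genes, Snap25 and Cplx2, which are REST targets too. In the list of calcium pumps, buffers and channels FK228 raised 10 and lowered 6 of 31 tested members in WT (23.7% and 25.3% of all genes). It raised 14 and lowered 7 in Het (23.8% and 24.7% of all genes). The median interaction of this list was 0.14 (-0.44 with spike-in scaling), and Atp2a3 was the only call (0.0234% of all genes). Atp2b4, a calcium pump of the plasma membrane, rose in both, from 9.17 ± 0.69 to 23.5 ± 1.51 CPM (SD, n = 4) in WT and from 7.43 ± 0.85 to 27.3 ± 1.48 CPM in Het, an interaction of 0.52 ± 0.15 (adjusted p = 0.516; -0.07 with spike-in scaling). Atp2b2, the calcium pump of hair bundles, had -0.13 ± 0.11 in WT and -0.50 ± 0.11 in Het, an interaction of -0.37 ± 0.16 (adjusted p = 0.824). Of the 21 REST partners and class I deacetylases, none was called (0.0234% of all genes), the median was -0.01, and the interval lay within 1 log2 unit of 0 for 20. Their smallest p values were those of Zfp217 (-0.39 ± 0.16), Rcor2 (0.73 ± 0.38) and Kdm5c (0.22 ± 0.15, -0.34 with spike-in scaling).

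More hair cell markers fell than rose with FK228 in both genotypes, and none was called for the interaction (0.0234% of all genes). At that share a list of 38 tested genes would rarely hold a call. FK228 lowered 17 and raised 2 of 38 tested hair cell markers in WT (25.3% and 23.7% of all genes) and lowered 15 and raised 5 in Het (24.7% and 23.8% of all genes). The median interaction was 0.07 (-0.50 with spike-in scaling), with 1 positive and 2 negative members at an unadjusted p under 0.05 (3.13% and 2.68% of all genes). Otof, the calcium sensor of hair cell vesicle release, was at 79.9, 56.9, 63.3 and 68.6 CPM in WT solvent and 40.5, 47.1, 43.6 and 49.2 CPM with FK228. It was at 24.7, 27.6, 32.8 and 28.9 CPM in Het solvent and 15.2, 15.9, 14.5 and 18.6 CPM with FK228. No 2 of the 4 groups overlapped, and the fall was -0.57 ± 0.11 in WT and -0.83 ± 0.12 in Het, an interaction of -0.26 ± 0.16 (adjusted p = 0.925). In bulk RNA, fewer cells of a type and less RNA per cell cannot be told apart.

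Myo7a, the motor of the hair bundle, had an interaction of 0.30 ± 0.33 and Pou4f3, a transcription factor of hair cell survival, of 0.08 ± 0.22 (adjusted p = 0.987 and 0.995; -0.25 and -0.47 with spike-in scaling). Slc26a5, the outer hair cell motor prestin, fell in both genotypes, from 3.22 ± 2.16 to 1.56 ± 0.59 CPM in WT and from 2.07 ± 0.30 to 0.78 ± 0.06 CPM in Het, an interaction of -0.37 ± 0.58. Atoh1, which starts hair cell development, had 1.99 ± 0.46 and 2.49 ± 0.83 CPM in WT and 2.95 ± 1.10 and 1.82 ± 0.70 CPM in Het, an interaction of -1.02 ± 0.48 (adjusted p = 0.853), and Jag2, a Notch ligand of hair cells, one of 1.07 ± 0.38 (adjusted p = 0.694). The 31 genes of stereocilia and mechanotransduction had a median of 0.09 (-0.48 with spike-in scaling) and no call (0.0234% of all genes). Their smallest p values were those of Ush1g (2.35 ± 0.95, on 0 to 2 counts per library in Het solvent), Clrn1 (-0.64 ± 0.29) and Whrn (0.90 ± 0.43), with adjusted p of 0.812, 0.844 and 0.863. These intervals do not exclude a sizeable difference for such low genes.

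Glycolysis genes had a median FK228 effect below 0 in WT and above 0 in Het. The list of 20 genes holds Slc2a1, Slc16a3, Pdk1 and Bnip3 beside the glycolytic enzymes. All 20 were tested and all had a positive interaction (50.6% of all genes), with a median of 0.58 (-0.02 with spike-in scaling, 0.54 above all genes on that scale). An unadjusted p under 0.05 was reached by 15 of them (3.13% of all genes), and none passed after adjustment (0.0234% of all genes). FK228 raised 3 and lowered 7 in WT (23.7% and 25.3% of all genes, list median -0.30), and raised 10 and lowered none in Het (23.8% and 24.7% of all genes, list median 0.30). Gapdh, the glyceraldehyde phosphate dehydrogenase often used as a reference gene, was at 675, 510.2, 474 and 618 CPM in WT solvent and 491, 545, 490.1 and 421 CPM with FK228, which overlap. In Het it was at 453, 430.2, 498 and 518 CPM in solvent and 639.9, 598, 784 and 888 CPM with FK228, which do not. Its effects were -0.23 ± 0.13 (adjusted p = 0.144) and 0.62 ± 0.13 (adjusted p = 0.000537), an interaction of 0.84 ± 0.18 (adjusted p = 0.190). Gapdh was called with no filter on low counts (adjusted p = 0.0207) and by DESeq2 (adjusted p = 0.00466, or 0.00973 without independent filtering), and no other member of the list was called in any alternative.

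Gpi1, the glucose phosphate isomerase, had an interaction of 0.87 ± 0.23 and Pgk1, phosphoglycerate kinase, of 0.62 ± 0.17 (adjusted p = 0.469 and 0.516). Ldha, lactate dehydrogenase A, was at 2488 and 1458 CPM in WT and 2275 and 2048 CPM in Het (group means), effects of -0.77 and -0.15. Bnip3, a mitophagy receptor induced by low oxygen, had effects of -0.39 and 0.54, the largest interaction of the list at 0.93 ± 0.29 (adjusted p = 0.552). The mean centred log2(CPM + 0.5) of the 20 genes was -0.20 to 0.32 in WT solvent, -0.29 to 0.14 in WT with FK228, -0.34 to 0.05 in Het solvent and 0.05 to 0.37 in Het with FK228. The genes share these libraries, so 20 positive signs are not 20 separate observations.

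**Figure D4:**
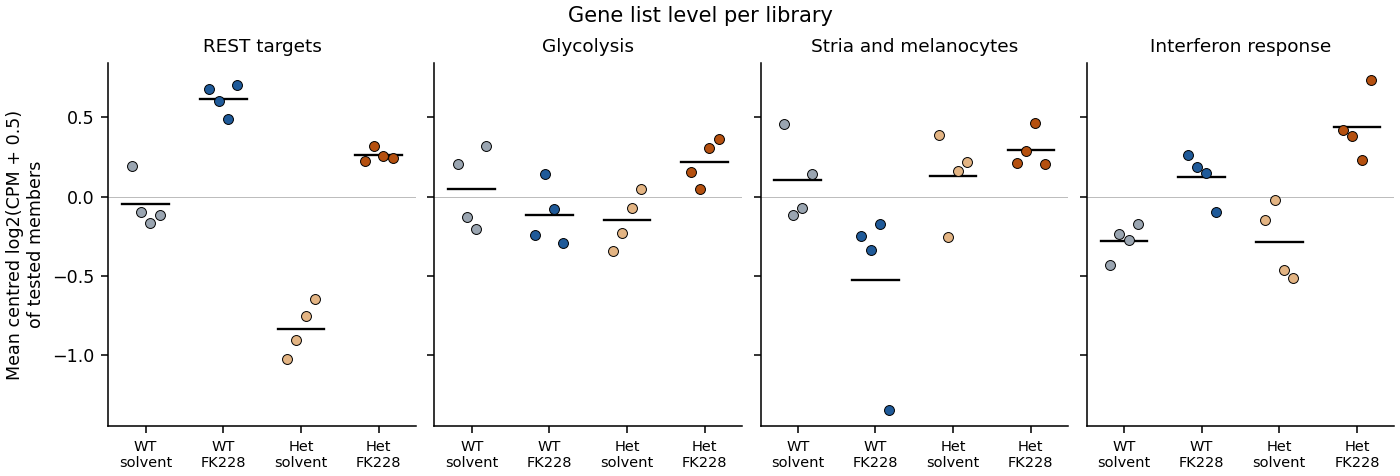
Mean centred log2(CPM + 0.5) of the tested members of 4 lists in each library, with 4 libraries per group as points and the group mean as a bar. REST targets run from -1.02 to -0.65 in Het solvent to between 0.23 and 0.32 in Het with FK228, and the WT library with the lowest stria and melanocyte score, -1.35, stands apart from the others of its group.

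The stria vascularis and melanocyte markers had a median interaction of 0.61 (0.00 with spike-in scaling), with 11 of 13 positive (50.6% of all genes). Of these, 5 had an unadjusted p under 0.05 (3.13% of all genes), and none was called (0.0234% of all genes). FK228 lowered 5 in WT (25.3% of all genes, list median -0.49) and raised 5 and lowered 2 in Het (23.8% and 24.7% of all genes, list median 0.24). Kcne1, a potassium channel subunit of marginal cells, was at 29.7, 10.95, 12.7 and 15.97 CPM in WT solvent, 11.7, 10.03, 15.6 and 2.66 CPM in WT with FK228, 20.1, 8.05, 16.8 and 12.7 CPM in Het solvent and 20.8, 25.6, 34.1 and 31.8 CPM in Het with FK228. Every Het library with FK228 lay above every other library but WT solvent library 1, which overlapped them. Its interaction was 1.77 ± 0.55 (adjusted p = 0.552), that of Esrrb 1.52 ± 0.55 and that of Atp1b2, a sodium pump subunit, 0.57 ± 0.22 (-0.02 with spike-in scaling). The defining marker Tyr ranged from 0.57 to 8.33 CPM in WT with FK228 and from 8.25 to 24.9 CPM in the other groups. The summed level of the 13 markers was 570 to 807 CPM in WT solvent, 348 to 571 in WT with FK228, 570 to 732 in Het solvent and 664 to 744 in Het with FK228. WT FK228 library 7 had the lowest score, and without it the median was 0.44. The part of strial tissue in any other result was not tested.

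Interferon response and antigen presentation genes had a positive interaction in 16 of 20 (50.6% of all genes), with a median of 0.21 (-0.34 with spike-in scaling). There were 4 positive members at an unadjusted p under 0.05 (3.13% of all genes) and no call (0.0234% of all genes). FK228 raised 9 and lowered 3 in WT (23.7% and 25.3% of all genes) and raised 12 and lowered 2 in Het (23.8% and 24.7% of all genes). Rsad2 (viperin) was at 2.00 ± 0.87 and 7.07 ± 2.38 CPM in WT and 1.05 ± 0.26 and 10.5 ± 4.26 CPM in Het, an interaction of 1.47 ± 0.53. Irf7, a transcription factor of the pathway, had 0.74 ± 0.26 and Psmb9, an immunoproteasome subunit, 0.67 ± 0.28 (adjusted p of 0.689 to 0.814 for the 3).

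Spiral ganglion neuron markers had a median of 0.04 over 22 members (-0.50 with spike-in scaling) and no call (0.0234% of all genes). Nefh, the heavy neurofilament, was at 7.24 ± 2.74 and 7.54 ± 1.95 CPM in WT and 2.18 ± 0.68 and 6.57 ± 0.78 CPM in Het, an interaction of 1.54 ± 0.38 (adjusted p = 0.393). The defining marker Rbfox3 was at 7.12 ± 0.95 and 4.69 ± 0.76 CPM in WT and 2.31 ± 1.01 and 3.4 ± 0.85 CPM in Het, an interaction of 1.16 ± 0.36, while the other defining marker, Prph, had -0.44 (adjusted p = 0.567 and 0.994). Gap43, a growth cone protein, fell in both, with -0.42 ± 0.19. Summed levels of the list were 1953 to 2398 CPM in WT solvent, 1960 to 2414 in WT with FK228, 1609 to 2285 in Het solvent and 1776 to 2003 in Het with FK228. Their part in the REST target values was not tested.

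Macrophage markers fell the most of all lists and in both genotypes. FK228 lowered all 15 tested in WT (25.3% of all genes) and all 15 in Het (24.7%), with medians of -2.95 and -3.11, and the summed level went from 483.3 to 578 CPM down to 57.8 to 73.9 in WT and from 330 to 493 down to 38.5 to 53.7 CPM in Het. The median interaction was -0.28, with 3 of 15 positive (50.6% of all genes) and no call (0.0234% of all genes). Lyz2 had an interaction of -0.48 ± 0.32, C1qc of -0.71 ± 0.32 and Adgre1 of -0.75 ± 0.39.

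The remaining lists of cell types had medians between -0.22 and 0.14, apart from red blood cells, and no call (0.0234% of all genes). Spike-in scaling placed the median of each below 0. Supporting cell markers had -0.16 (9 of 29 positive, against 50.6% of all genes), led by Rorb (-0.29 ± 0.16), Fabp7 (-0.54 ± 0.30) and Otogl (-0.50 ± 0.31). Schwann cell markers had -0.07 (5 of 16 positive), led by Pou3f1 (0.63 ± 0.42), Mag (0.68 ± 0.49) and Gfra3 (-0.75 ± 0.60). Mesenchyme had -0.05 (5 of 15 positive) with Vim at 0.23 ± 0.14, Col1a1 at -0.65 ± 0.40 and Fn1 at 0.25 ± 0.20. Cartilage and bone had -0.13 (3 of 12 positive) with Col11a1 at -0.28 ± 0.12, Col9a2 at 0.36 ± 0.22 and Comp at 0.72 ± 0.52. Endothelium and pericytes had 0.14 (11 of 15 positive) with Kdr at 0.40 ± 0.24, Flt1 at 0.47 ± 0.34 and Pecam1 at 0.28 ± 0.21. Most cell cycle genes fell in both genotypes. Of 29, FK228 lowered 22 and raised 2 in WT (25.3% and 23.7% of all genes). It lowered 24 and raised 2 in Het (24.7% and 23.8% of all genes). Their median interaction was -0.22 (7 of 29 positive, against 50.6% of all genes), with Mki67 at -0.57 ± 0.31, Ccnd2 at 0.23 ± 0.13 and Myc at 0.31 ± 0.18. Red blood cell markers were nearly absent: 2 of 9 were tested, Alas2 (-1.40 ± 0.71) and Epb42 (-0.86 ± 1.18), and Hbb-bs had at most 9 counts. Vim, Fn1, Col9a2, Kdr, Flt1, Pecam1, Ccnd2 and Myc turned negative with spike-in scaling.

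Lists of known responses to the drug class and to stress held no gene called for the interaction (0.0234% of all genes). At that share, lists of 16 to 21 tested genes would rarely hold a call. The median of each list was below 0 with spike-in scaling. The 21 genes of the deacetylase inhibitor response had a median effect of 0.29 in each genotype and a median interaction of 0.01. Tubb3 (0.64 ± 0.29) was the 1 member at an unadjusted p under 0.05 (3.13% of all genes in the positive direction), and Hist2h2be had -0.36 ± 0.21. Cdkn1a, which encodes the cell cycle inhibitor p21 and is also on the p53 list, went from 188 ± 21.8 to 206 ± 12.9 CPM in WT and from 182 ± 24.9 to 236 ± 19.7 CPM in Het, an interaction of 0.24 ± 0.14 (adjusted p = 0.901; -0.32 with spike-in scaling). The p53 response had a median of 0.08 (13 of 18 positive, against 50.6% of all genes), with Zmat3 at -0.31 ± 0.19 and Bax at 0.16 ± 0.12. Immediate early genes had 0.07, with Atf3 at -0.80 ± 0.31, Ier3 at 0.40 ± 0.23 and Arc at 0.85 ± 0.57. The unfolded protein and stress response had -0.11 over 21 tested members, with a positive interaction in 4 (50.6% of all genes). Of the 21 members, 3 had a negative interaction at an unadjusted p under 0.05, against 2.68% of all genes. They were Atf3, Canx (-0.23 ± 0.10) and Pdia4 (-0.29 ± 0.13), with adjusted p of 0.762 to 0.849. Bax and Ier3 also turned negative with spike-in scaling.

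**Figure D5:**
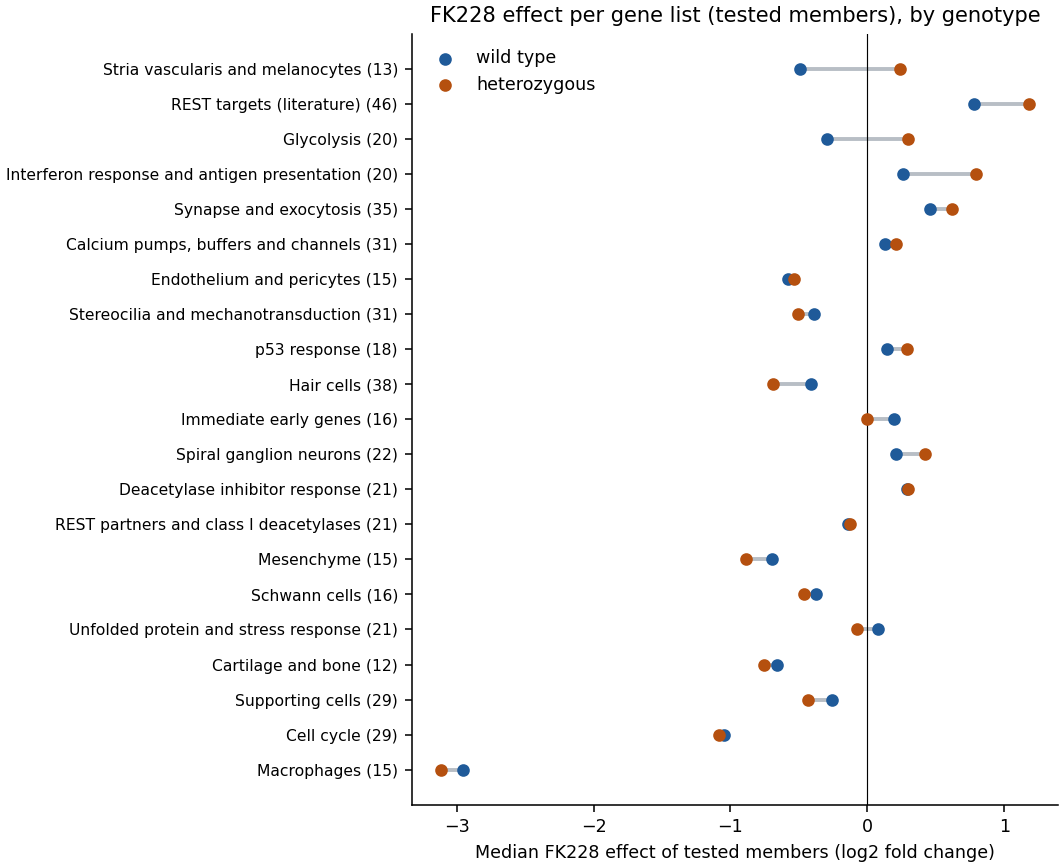
Median FK228 effect (log2 fold change) of the tested members of each list with at least 10 tested members, in WT and in Het, ordered by the median interaction, with the number tested in brackets. Stria and melanocyte, REST target, glycolysis and interferon lists have the Het point well to the right, and macrophage markers lie near -3 in both genotypes.

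Among the genes that came next in order of p, chosen after their values were seen, both directions were present. Arhgap44 was at 169, 184, 165 and 166 CPM in WT solvent and 283, 297, 300.4 and 325 CPM with FK228. In Het it was at 240.4, 222, 227 and 235 CPM in solvent and 243, 252, 309 and 262 CPM with FK228. The WT groups did not overlap and the Het groups did not overlap either, with a narrower gap in Het. Its rise was 0.82 ± 0.07 in WT and 0.21 ± 0.07 in Het, an interaction of -0.61 ± 0.10 (adjusted p = 0.0508). Raly, an RNA-binding protein, went from 14.9 ± 3.27 to 21.9 ± 2.58 CPM in WT and from 14 ± 0.73 to 40.7 ± 2.55 CPM in Het, with solvent groups that overlapped, an interaction of 0.98 ± 0.19 (adjusted p = 0.144). Tubb2b, a neuronal beta-tubulin, went from 44.3 ± 4.88 to 66.8 ± 5.01 in WT and from 38.3 ± 2.1 to 87.1 ± 2.21 CPM in Het (0.59 ± 0.12, adjusted p = 0.144).

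Pigt, a subunit of the enzyme that attaches GPI anchors, went from 100.3 ± 7.83 to 89.3 ± 9.49 CPM in WT and from 133 ± 28.7 to 223 ± 23.5 CPM in Het (0.91 ± 0.18, adjusted p = 0.151). Tmem130 rose from 3.93 ± 0.42 to 11.1 ± 1.24 CPM in WT and from 1.62 ± 0.66 to 13.1 ± 1.95 CPM in Het (1.53 ± 0.30, adjusted p = 0.149). Gpnmb, a glycoprotein of melanocytes and phagocytes, fell in both, from 66.4 ± 11.1 to 16.4 ± 4.57 CPM in WT and from 47.1 ± 10.9 to 27.1 ± 3.95 CPM in Het (1.22 ± 0.26). Gas6, a ligand of TAM receptors, had 0.66 ± 0.14 and Map4, a microtubule protein, 0.44 ± 0.09 (adjusted p = 0.190 for the 3, and -0.13 for Map4 with spike-in scaling). Tmem145 had 0 counts in all 4 Het solvent libraries and 14 to 26 in Het with FK228, with 4 to 18 and 24 to 42 counts in WT, and its mean gained 1.28 CPM in each genotype.

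Median genotype differences were nearer to 0 in the treatment that was not used to choose the genes, whichever treatment that was. The 141 genes lower in Het solvent had a median log2 difference of -1.03 there and -0.56 with FK228. With FK228, 55 of them were called lower too, against 0.928% of all genes. The 159 genes lower in Het with FK228 had -0.68 there and -0.40 in solvent. The 206 genes higher in Het solvent had 1.19 there and 0.87 with FK228. With FK228, 105 of them were called higher too, against 1.21% of all genes. The 207 genes higher with FK228 had 1.22 there and 0.77 in solvent. These medians move toward 0 in both directions of choice, and no test was made of the change from -1.03 to -0.56.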

How the data were processed

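Gene-level read counts, not normalized, are what the authors deposited. The submitters' processing notes name STAR 2.5.2a and the build GRCm38.p4. Unstranded counts of 48709 genes were used, since reads split evenly between the strands (49.8% to 49.9% on the first). Antisense and overlapping genes are therefore not told apart. Library totals and tests left out spike-in and transgene entries. In edgeR 4.0.16 (R 4.3.3), filterByExpr with a minimum count of 10 and a minimum total of 15 left 17125 genes. A model with a mean for each group, TMM factors and all 16 libraries was tested by quasi-likelihood, with Benjamini-Hochberg adjustment over all genes. CPM are TMM-scaled. Each SE and interval comes from the fit, and each SD from 4 libraries. List levels are means of centred log2(CPM + 0.5).

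The 22 gene lists and the genes named were chosen with earlier results of these data known. Named are Rest, 8 anchor genes, called genes and up to 3 members per list by interaction p. Of 520 list entries 486 passed the filter. Positions are from GENCODE M21, which held 99.3% of gene identifiers, and promoters from RefSeq (GRCm38.p6). Same-group libraries differed by more than sampling noise (chi-square per gene 6.57 to 29.1 over 24 pairs). Alternatives were RLE factors, no filter, a stricter filter, spike-in scaling, no mitochondrial genes, a replicate block (shared or within genotype), sex mix or no-gene share as covariate, DESeq2 1.42.0, limma 3.58.1 voom and each library left out.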

Additional observations from a re-analysis of the deposited data

Results flagged for a closer look

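A difference between genotypes in the FK228 effect passed the interaction test for Atp2a3 (3.13 on the log2 scale), Sncb (2.65), Snap25 (2.12) and Cplx2 (-0.80), described above.

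In 7 of 256 groups of 4 libraries examined, 1 library lay far from the other 3 by Dixon's criterion, which chance meets in about 1 of 20 groups. Cplx2 was at 50.2 CPM in Het FK228 library 3, with the other 3 at 45.2 to 45.6 CPM and every WT library with FK228 above it. Zmat3 was at 17.6 CPM in the same library. Rorb was at 49.0 CPM in Het solvent library 5, Pou3f1 at 8.03 CPM in WT FK228 library 4 and Psmb9 at 5.57 CPM in WT solvent library 4. Gap43 (44.2 CPM) and Pdia4 (956 CPM) stood apart in WT solvent library 1, which is also 1 of the 2 libraries with the lowest no-gene share.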

How the results depend on the processing

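Depth limits this comparison for low genes: the median SE of the interaction was 0.16 for genes with at least 10 CPM and 0.46 below. Against 4 calls (3 positive, 1 negative), the counts were 5 (2 negative) with RLE factors and with the stricter filter, 10 (8 positive, 2 negative) with no filter, 4069 (9 positive, 4060 negative) with spike-in scaling, 2 (1 positive) with the sex mix as covariate, 8 (6 positive, 2 negative) with the no-gene share, 2 (1 positive) without the 2 libraries of lowest no-gene share, 16 (6 positive, 10 negative) with DESeq2, which gave no adjusted p for Atp2a3, Sncb and Snap25, 26 (18 positive, 8 negative) with DESeq2 without independent filtering, an alternative chosen after the data were seen, and 2 (1 positive) with voom and quality weights. Where 2 were called they were Atp2a3 and Cplx2. Leaving out 1 library gave 2 to 6 calls, 1 to 4 positive and 1 to 4 negative.

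With the replicate block there were 0 calls (0 positive, 0 negative; 797 genes with an unadjusted p under 0.05, adjusted p = 0.0568 for each of the 4 genes), and with the replicate block within genotype also 0 (765 genes; adjusted p = 0.350 for Atp2a3, 0.358 for Sncb, 0.159 for Snap25 and 0.159 for Cplx2). The estimates were 3.23 for Atp2a3, 2.89 for Sncb, 2.44 for Snap25 and -0.83 for Cplx2 under the shared block, and 3.21, 2.70, 2.13 and -0.84 within genotype. The numbers pair no samples in the labels, and same-numbered libraries of a genotype had correlations of -0.104 to 0.15 (6 pairs), and 2 of 12 libraries correlated best with their own number in the other treatment. Under the shared block Myo7a had -0.0503.

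With spike-in scaling these turned negative: Rest -0.54, Myo7a -0.25, Pou4f3 -0.47, Kdm5c -0.34, Atp2b4 -0.068, Vim -0.33, Fn1 -0.31, Col9a2 -0.19, Kdr -0.17, Flt1 -0.12, Pecam1 -0.33, Atp1b2 -0.0222, Ccnd2 -0.33, Myc -0.27, Cdkn1a -0.32, Bax -0.38, Ier3 -0.18 and Map4 -0.13. Rest was -0.0287 with the replicate block within genotype, -0.0126 with the sex mix and -0.0086 with voom, and -0.0378 to 0.054 with 1 library left out, where Pou4f3 was -0.0398 to 0.25. The REST target median was 0.0002 with spike-in scaling, 0.44 with the replicate block within genotype, 0.43 without the 2 libraries and 0.42 to 0.68 with 1 left out. The glycolysis median was -0.0191 with spike-in scaling and 0.47 to 0.67 with 1 left out. Snap25 was -9.87 as a difference of CPM changes. The cause was not tested for these.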
